A study of Mus musculus with 18 samples.

Results

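The axon guidance ligands and receptors were taken as every probe whose symbol on the array belongs to the semaphorins of classes 3 to 7, the plexins, the neuropilins, the Eph receptors and their ephrin ligands, the Slit and Robo families, or the netrins and their Dcc and Unc5 receptors. The rule found 162 of the 45281 probes and 67 of the 30869 symbols. Each symbol was followed by its brightest probe over all arrays, and 41 symbols had more than 1 probe. Unc5cl (Unc5c-like) was caught by the rule through its name and is not a guidance receptor. Its signals lay between 4.20 and 4.40 on the log2 scale, and no condition had it detected on all arrays.

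The cells were ESD3, a mouse embryonic stem (ES) cell line of strain 129s2/SvPas. The labels name a retrovirus and the study's methods a lentiviral vector, selected with puromycin. Control cells carried an shRNA against luciferase, and HPRT-knockdown cells carried an shRNA designed against the human gene of hypoxanthine-guanine phosphoribosyltransferase (HPRT), an enzyme that recycles purine bases. Both were measured as ES cells, which grew on mouse embryo fibroblast feeder cells in medium with leukemia inhibitory factor, as spherical neural masses (SNM), and at the final neuronal stage of a differentiation towards dopaminergic neurons. Each of the 6 conditions was hybridised to 3 Illumina arrays from 1 pool of RNA of replicate cultures, so each SD and p-value below reflects array-to-array error alone and holds nothing of how cultures vary. Neither source says that the transduced cells were cloned.

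Growing axons are steered by pairs of ligands and receptors. Semaphorins act through plexins, the secreted class 3 semaphorins with a neuropilin as the binding subunit. Ephrins, held in the membrane by a lipid anchor (A class) or by a membrane-spanning segment (B class), are read by Eph receptor tyrosine kinases and can signal back into the cell that carries them. Slits repel axons from the midline through receptors of the Robo family, and netrins attract or repel through Dcc and Unc5 proteins. The same families act outside axons, in vessel, muscle, glial and epithelial development.

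The labels were checked first. Hprt1, as the array names the targeted gene, had a mean log2 signal of 12.04 ± 0.03 in control and 7.95 ± 0.19 in HPRT-knockdown ES cells, 11.20 ± 0.06 against 9.44 ± 0.09 in SNM, and 11.05 ± 0.03 against 6.60 ± 0.04 in the neuronal cultures (SD, n = 3). Each array detected between 18827 and 22202 probes at a detection p-value under 0.05. Markers of other cell types differed between the cell cultures. In the neuronal cultures all 12 skeletal muscle markers were detected in control cells, where the log2 of their summed signal lay between 16.19 and 16.22, against 8.65 to 8.99 in HPRT-knockdown cells, and 11 of the 12 were lower in knockdown cells. All 14 oligodendrocyte markers were higher in HPRT-knockdown cells at this stage (16.60 to 16.67 against 13.41 to 13.44), 6 of 9 tested neuron markers were lower (12.47 to 12.67 against 13.46 to 13.58) and 7 of 10 fibroblast markers were lower (13.74 to 14.10 against 14.56 to 14.79). At the SNM stage all 6 floor plate markers were higher in knockdown cells (12.17 to 12.32 against 8.59 to 8.61) and 5 of 8 astrocyte and radial glia markers were higher (13.96 to 14.06 against 13.06 to 13.18). Of the skeletal muscle markers, 9 of 11 tested were higher in knockdown SNM (11.59 to 11.70 against 10.65 to 10.69), opposite to the neuronal stage, and of 5 tested dopaminergic markers 3 were lower and 1 higher (10.07 to 10.20 against 11.47 to 11.52). Of the 11 neuron markers on the array, 9 were detected on all control and 8 on all HPRT-knockdown arrays of the neuronal stage. The rest were Snap25 and Nefl, detected on none of the 6 arrays, and Tubb3, on none of the 3 HPRT-knockdown arrays. In these bulk samples, fewer cells of a type and less RNA per cell cannot be told apart, and the part of such shifts in the differences below was not tested.

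**Figure D1:**
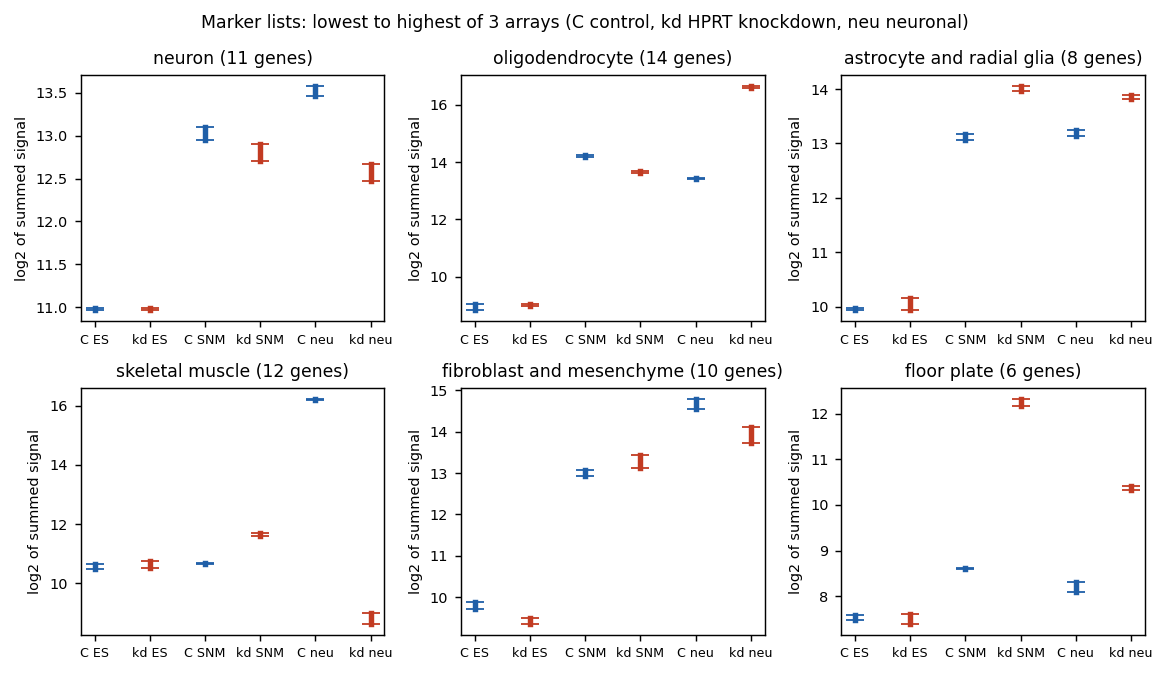
Summed signal of 6 lists of cell type markers in the 6 conditions. The vertical axis is the log2 of the signal summed over the genes of a list, with its own range in each panel, and each bar runs from the lowest to the highest of 3 arrays in control (blue) or HPRT-knockdown cells (red). The skeletal muscle list lies between 16.19 and 16.22 in control and between 8.65 and 8.99 in knockdown cells at the neuronal stage, and the oligodendrocyte list lies the other way.

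Of the 67 members, 52 were detected on all 3 arrays of at least 1 condition and 21 in all 6 conditions. The other 15 were Dcc, Unc5a, Unc5d and Unc5cl, Efna2 and Efna3, Epha6, Epha8, Epha10 and Ephb6, Plxna1, Sema3g, Sema4c and Sema6c, and Slit1, and nothing is said of their differences. Members entered a test between conditions only if all 3 arrays of either condition detected them. It was called changed at a limma p-value, adjusted by Benjamini-Hochberg over all probes tested, under 0.05 together with a change of at least 1.5-fold. A member detected in the brighter condition alone passes this filter because of its difference, so counts are also given for members detected on all arrays of both conditions. Exact permutation tests were not used, since with 3 arrays a side their two-sided p cannot go below 0.1.

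At the ES stage 30 members were tested and Slit2 alone was called, higher in knockdown cells, beside 1.68% of all tested probes (0.516% higher, 1.17% lower). Its call rested on an ES control signal detected on 1 of 3 arrays. None of the 24 members detected on all arrays of both cell types was called by limma, beside 1.14% of such probes. The Slit2 call was lost with either normalization that leaves the background in the signals, where the log2 difference was 0.32 or 0.19. At the SNM stage 50 members were tested, and 15 were higher and 8 lower in HPRT-knockdown cells. Among all tested probes 19.9% were called, 11% higher and 8.90% lower. The median log2 difference was 0.18 over the tested members and -0.04 over all tested probes. Of the 47 members detected on all arrays of both cell types at this stage, 13 were higher and 8 lower, beside 19.4% of such probes. The number of calls depended on the background step: 10 members were called (6 higher, 4 lower) after quantile normalization without background correction and 8 (4 higher, 4 lower) after scaling to the 75th percentile, all of them among the 23.

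At the neuronal stage 49 members were tested, and 12 were higher and 19 lower in HPRT-knockdown cells. The background was 27.4% of all tested probes, 13.9% higher and 13.5% lower. The median log2 difference was 0.02 over the tested members and 0.01 over all tested probes. Of the 44 members detected on all arrays of both cell types, 10 were higher and 16 lower, beside 25.5% of such probes. The lower members lay in most receptor families: all 4 Robo receptors, 4 of 5 tested EphA receptors, Ephb4, Nrp1 and 3 of 8 tested plexins, together with the ephrin ligands Efna4, Efna5, Efnb1 and Efnb2 and the secreted Sema3a and Sema3f. The higher members held Slit2, Efna1 and Efnb3 among the ligands, 3 plexins, 5 of 16 tested semaphorins and the netrin receptor Unc5c. Either scaling without background correction called 22 of the 31 (7 higher, 15 lower).

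**Figure D2:**
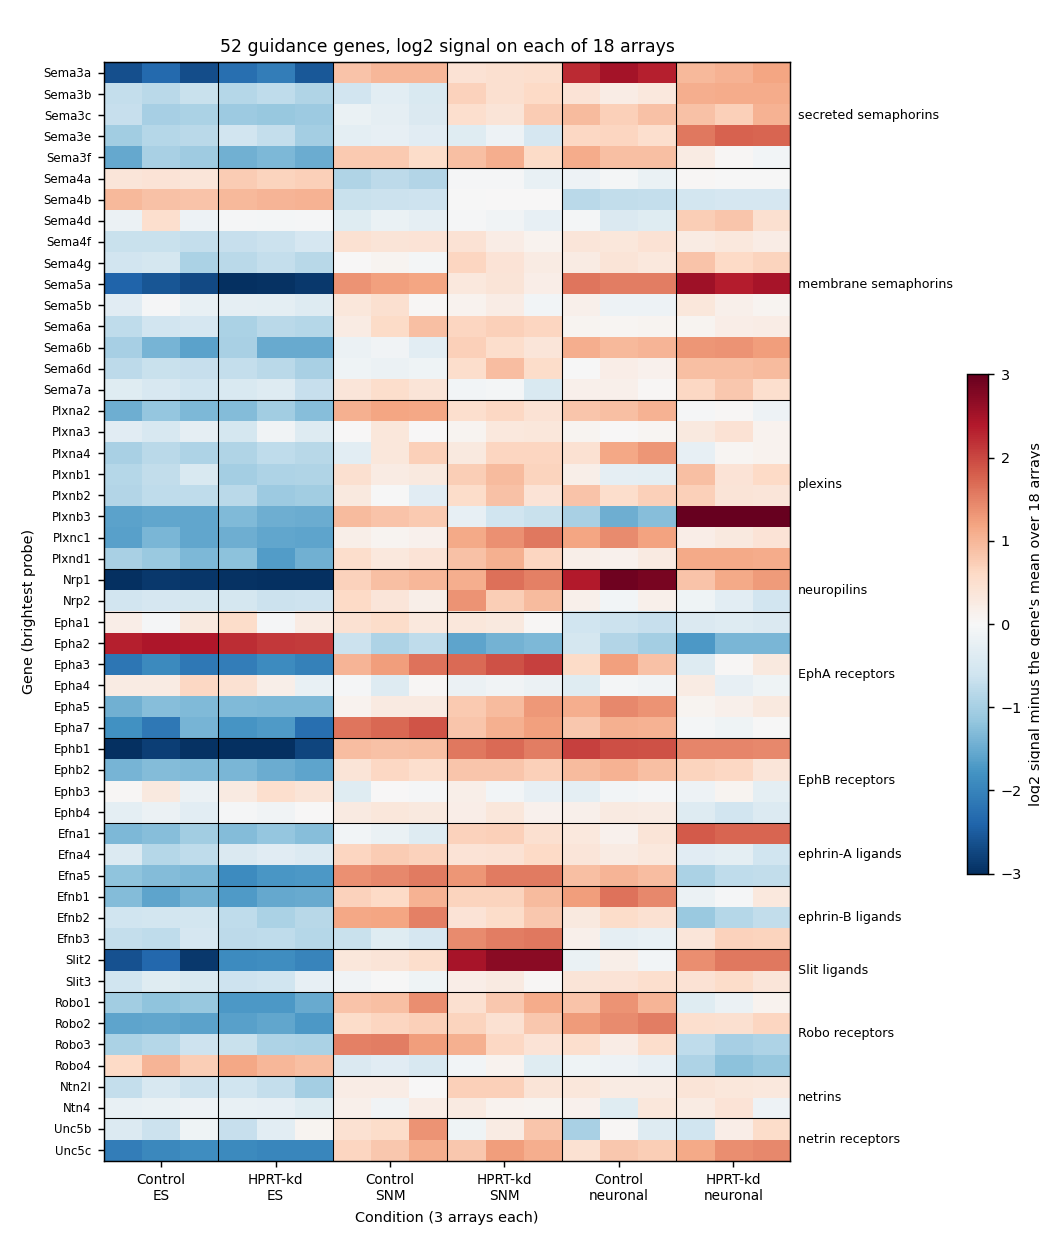
Log2 signal of the 52 members detected in at least 1 condition, 1 row for each gene grouped by family and 1 column for each of the 18 arrays. Colour gives the signal minus the mean of that gene over 18 arrays and is capped at 3 log2 units in either direction. Most rows turn from blue at the ES stage to red at the SNM stage in both cell types, and the neuronal columns of knockdown cells are paler or bluer than those of control cells for all 4 Robo receptors and for Epha3, Epha5, Epha7, Efna5, Efnb1 and Efnb2, while Plxnb3, Efna1 and Efnb3 are redder.

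The promoters of the 2 members that rose most and the 2 that fell most at the neuronal stage are shown as the sequence just before the transcribed part, since these genes moved farthest in opposite directions. Each run holds the 250 bases before the RefSeq start in the mouse build GRCm38.p6, 5′ to 3′ on the strand of the gene. Capitals mark matches, on either strand, to ACAAAG or ACAATG (core letters of Sox sites), CAGCTG (an E-box) or GGGCGG (a GC box), and no match overlaps another.
Plxnb3, chrX:73756853-73757102, plus strand: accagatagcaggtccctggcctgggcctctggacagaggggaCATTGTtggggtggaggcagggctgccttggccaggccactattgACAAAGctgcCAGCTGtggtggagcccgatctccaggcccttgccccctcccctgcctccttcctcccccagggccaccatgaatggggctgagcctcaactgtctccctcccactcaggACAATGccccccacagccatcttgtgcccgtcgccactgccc
Slit2, chr5:47982905-47983154, plus strand: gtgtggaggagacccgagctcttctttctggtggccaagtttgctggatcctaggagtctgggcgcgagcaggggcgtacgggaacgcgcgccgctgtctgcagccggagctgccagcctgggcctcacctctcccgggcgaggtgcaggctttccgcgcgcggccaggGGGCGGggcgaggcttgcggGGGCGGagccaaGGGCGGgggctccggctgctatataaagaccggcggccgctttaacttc
Nrp1, chr8:128358823-128359072, plus strand: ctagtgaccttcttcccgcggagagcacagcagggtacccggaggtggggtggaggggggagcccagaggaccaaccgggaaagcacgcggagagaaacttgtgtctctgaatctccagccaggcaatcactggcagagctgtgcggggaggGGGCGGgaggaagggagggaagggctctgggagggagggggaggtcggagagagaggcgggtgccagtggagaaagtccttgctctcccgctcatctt
Efna5, chr17:62881318-62881567, minus strand: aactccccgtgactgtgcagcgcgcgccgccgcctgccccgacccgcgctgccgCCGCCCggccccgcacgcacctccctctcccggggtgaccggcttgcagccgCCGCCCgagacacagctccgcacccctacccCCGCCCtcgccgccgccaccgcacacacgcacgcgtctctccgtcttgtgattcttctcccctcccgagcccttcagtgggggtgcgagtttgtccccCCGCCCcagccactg
The Plxnb3 promoter held 1 ACAAAG, 2 ACAATG and 1 CAGCTG, and no GGGCGG. Those of Slit2, Nrp1 and Efna5 held 3, 1 and 4 GGGCGG and none of the other motifs. Among all 32851 RefSeq promoters, 16.5% held ACAAAG, 10.7% ACAATG and 32.7% GGGCGG, and 4271 promoters held CAGCTG. The 74 promoters matched to 58 members held ACAAAG in 9.46%, ACAATG in 9.46%, CAGCTG in 14.9% (11 promoters) and GGGCGG in 73.0%. These are letters in a window and not measured binding sites. The Plxnb3 window had 3 CpG dinucleotides, the Slit2 window 25, the Nrp1 window 11 and the Efna5 window 32.

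Among the secreted semaphorins, Sema3b was higher in HPRT-knockdown cells at both later stages. Sema3b is a class 3 ligand for neuropilin-plexin receptors. At the SNM stage its log2 signals were 4.60, 4.86 and 4.71 in control cells, where 1 of 3 arrays detected it, and 5.86, 5.65 and 5.77 in knockdown cells. The groups did not overlap, and the log2 difference was 1.03 ± 0.08 (limma SE, adjusted p = 1.63e-08). Its neuronal-stage difference was 0.78 ± 0.08. Sema3c, another class 3 ligand, gave 5.19, 5.12 and 4.95 in control and 5.90, 5.77 and 6.13 in knockdown SNM, a difference of 0.84 ± 0.11 (limma adjusted p = 8.98e-06). Later its signals were 6.34, 6.10 and 6.26 against 6.26, 6.09 and 6.43, and the groups overlapped.

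Sema3a, the classical repellent that collapses sensory growth cones, and Sema3e, a ligand that binds Plxnd1 directly, moved apart at the neuronal stage. Sema3a signals were 9.29, 9.54 and 9.37 in control and 8.03, 8.08 and 8.22 in HPRT-knockdown cells. All knockdown arrays lay below all control arrays, and the signal was 2.45-fold lower (log2 difference -1.29 ± 0.11, limma adjusted p = 4.57e-08). For Sema3e the signals were 6.57, 6.58 and 6.46 in control and 7.52, 7.72 and 7.69 in knockdown cells. This ligand was 2.16-fold higher (log2 difference 1.11 ± 0.11, limma adjusted p = 2.12e-07). Sema3f, which binds Nrp2, was lower by 0.90 on the log2 scale with its brightest probe and by 1.09 with the second. In all, 2 of 5 tested secreted semaphorins were higher and 2 lower, beside 13.9% higher and 13.5% lower among all tested probes.

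The membrane semaphorins were called in both directions in SNM. There 4 of 10 tested members were higher in HPRT-knockdown cells: Sema6d (0.81 on the log2 scale), Sema4a (0.77), Sema6b (0.73) and Sema4b (0.64). Sema5a and the lipid-anchored Sema7a were lower (-0.62 for Sema7a, and -0.50 without replicate 3, which ended its call). Later, in the neuronal cultures, limma called 3 of 11 higher and none lower, with 7 of the 11 at an unadjusted p under 0.05. That is 27.3% beside 27.4% of all tested probes, so the share is no result about this family. Sema6d, a ligand of Plxna1 that also acts as a receptor, kept its difference at 0.81. Sema4d, a ligand of Plxnb1, gave 4.70, 4.31 and 4.40 in control cells, where no array detected it, and 5.49, 5.58 and 5.23 in knockdown cells, where all did. It was at least 1.65-fold higher (limma adjusted p = 4.05e-05), the bound being set on each control array by the higher of its lowest detected signal and the signal of the probe. Sema4f, Sema4g, Sema5b and Sema6a were called at no stage, with differences between -0.20 and 0.42 in SNM.

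Sema5a, a membrane semaphorin with thrombospondin repeats that binds Plxnb3, changed direction between the stages. In SNM its signals were 9.01, 8.89 and 8.83 in control and 7.97, 8.04 and 7.85 in HPRT-knockdown cells. Every knockdown array lay below every control array there, with a log2 difference of -0.96 ± 0.10 (limma adjusted p = 5.25e-07). At the neuronal stage the signals were 9.25, 9.19 and 9.20 in control and 10.20, 10.02 and 10.13 in knockdown cells. Every knockdown array now lay above, with a log2 difference of 0.91 ± 0.10 (limma adjusted p = 5.52e-07). A second Sema5a probe moved the same way at both stages, -1.07 and then 0.72, and a dimmer probe was not called at the neuronal stage (0.12). In ES cells Sema5a was called only without replicate 3, at -0.62 on the log2 scale, and no knockdown ES array detected its brightest probe. The second probe was not tested in ES cells and gave 0.40.

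Plxnb3, the X-linked plexin that serves as a receptor of Sema5a, had the largest difference of all members at the neuronal stage. In SNM the control signals were 6.80, 6.70 and 6.63 and the HPRT-knockdown signals 5.62, 5.25 and 5.18. The receptor was 2.57-fold lower in knockdown SNM (log2 difference -1.36 ± 0.12, limma adjusted p = 8.64e-08). Neuronal control cells gave 4.89, 4.39 and 4.59, with detection on 1 of 3 arrays, and knockdown cells gave 9.79, 9.77 and 9.68. Set against the lowest detected signal of each control array, it was at least 31.7-fold higher there (limma adjusted p = 2.27e-15). The fitted log2 difference of 5.12 ± 0.12 rests on control signals at background. It was detected on no ES array of either cell type. The array carries 1 probe for Plxnb3, so no second probe bears on this difference. The oligodendrocyte markers moved the same way at both stages, with 9 of 13 tested markers lower in knockdown SNM and 14 of 14 higher in knockdown cells at the neuronal stage, and the part of that shift in the Plxnb3 signal was not tested.

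Plxnc1, a receptor of Sema7a, moved in the opposite order. In SNM its signals lay between 5.96 and 6.06 in control cells and were 7.02, 7.26 and 7.47 in HPRT-knockdown cells, a log2 difference of 1.24 ± 0.10 (limma adjusted p = 4.66e-08). Neuronal cultures gave 7.07, 7.30 and 7.10 in control and 6.09, 6.17 and 6.29 in knockdown cells, a difference of -0.97 ± 0.10 (limma adjusted p = 4.13e-07). The groups did not overlap at either stage. Its dimmer second probe was not called at the neuronal stage (-0.35).

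The remaining plexins went both ways. Plxnd1, the endothelial and neuronal receptor of Sema3e, gave 6.64, 6.59 and 6.73 in control and 7.61, 7.60 and 7.59 in HPRT-knockdown cells at the neuronal stage. Its log2 difference of 0.95 ± 0.12 (limma adjusted p = 4.22e-06) had the direction of that of its ligand. Plxnb1, the Sema4d receptor, was also higher (0.77). Plxna2 was lower at both stages (-0.62 and -0.98), although without replicate 3 its SNM difference was -0.57, under the 1.5-fold limit. Plxna4 was lower at the neuronal stage (-1.01). Plxnb2, higher in knockdown SNM by 0.63, was not called without replicate 2 (0.50) or without replicate 3 (0.57). Plxna3 was called at neither stage.

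Nrp1 and Nrp2 are the neuropilins, the ligand-binding partners of plexins for class 3 semaphorins, and Nrp1 also binds vascular endothelial growth factor. The neuronal Nrp1 signals were 11.03, 11.57 and 11.49 in control and 9.49, 9.79 and 9.92 in HPRT-knockdown cells. Every knockdown array lay below every control array, and Nrp1 was 3.09-fold lower (log2 difference -1.63 ± 0.16, limma adjusted p = 1.76e-07). Its second probe gave -1.60. The probes differed in ES cells, where the second was called lower at -0.96 (limma adjusted p = 0.00295) and the first gave -0.18. In SNM the first probe gave 0.54, which passed the 1.5-fold limit only without replicate 1 (0.63). Nrp2 was higher in knockdown SNM by 0.64, a call lost without replicate 1 (0.57) or without replicate 3 (0.57), and gave -0.41 at the neuronal stage, under the 1.5-fold limit.

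The ephrin-A ligands split at the neuronal stage. Efna1, which is bound with high affinity by Epha2 and is common on endothelium, had SNM signals of 5.91, 5.78 and 5.61 in control and 6.68, 6.70 and 6.47 in HPRT-knockdown cells. The log2 difference there was 0.85 ± 0.10 (limma adjusted p = 2.24e-06). Its neuronal signals were 6.32, 6.12 and 6.38 in control and 7.82, 7.73 and 7.73 in knockdown cells. The ligand was 2.81-fold higher in knockdown cells (log2 difference 1.49 ± 0.10, limma adjusted p = 1.53e-09), with no overlap of the groups at either stage. Efna5, the ligand graded across the retinal target fields of the midbrain, gave 10.64, 10.72 and 10.84 in control and 10.61, 10.83 and 10.84 in knockdown SNM, where the groups overlapped. By the neuronal stage its signals were 10.18, 10.29 and 10.21 in control and 8.34, 8.51 and 8.53 in knockdown cells. This was the largest fall of any member, 3.4-fold (log2 difference -1.77 ± 0.08, limma adjusted p = 1.37e-11). Efna4 was lower by 0.72 on the log2 scale with its brightest probe and by 0.83 with the second.

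All 3 ephrin-B ligands were called at the neuronal stage. Efnb1, whose loss in people and mice disturbs craniofacial boundaries, gave 9.81 ± 0.19 (SD, n = 3) in control cells, the lowest array being at 9.62, and 8.19, 8.32 and 8.68 in HPRT-knockdown cells. It was 2.66-fold lower (log2 difference -1.41 ± 0.14, limma adjusted p = 2.99e-07), after SNM values that overlapped (9.06, 8.96 and 9.40 against 9.04, 9.02 and 9.32). Efnb2, the ligand that marks arterial endothelium, was lower at both stages. Its SNM signals were 9.37, 9.38 and 9.70 in control and 8.61, 8.76 and 9.02 in knockdown cells (-0.69 ± 0.12, limma adjusted p = 0.000146). Its neuronal signals were 8.50, 8.76 and 8.65 in control and 7.08, 7.35 and 7.45 in knockdown cells (-1.34 ± 0.12, limma adjusted p = 6.47e-08), again without overlap. Emcn and Cdh5, 2 of the 3 endothelial markers tested at this stage, were lower by 1.90 and 0.72 on the log2 scale in knockdown cells and Flt1 was higher by 1.18, and in SNM Emcn was lower while Cdh5, Tek and Flt1 were higher. The part of these cells in the Efnb2 signal was not tested.

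Efnb3, a midline ephrin of the spinal cord that keeps corticospinal axons from crossing back, was the second largest rise in SNM. Control SNM gave 4.67, 4.98 and 4.84, with detection on 2 of 3 arrays, and HPRT-knockdown SNM gave 6.77, 6.88 and 6.91. The ligand was at least 3.91-fold higher against the floor of the control arrays (fitted log2 difference 2.02 ± 0.11, limma adjusted p = 7.6e-10). The neuronal signals were 5.48, 5.06 and 5.12 in control and 5.70, 6.03 and 6.01 in knockdown cells, with a smaller difference of 0.69 ± 0.11 that was not called without replicate 2 (0.55).

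Among the EphA receptors, Epha2 and Epha7 were lower in HPRT-knockdown cells at both later stages. Epha7 signals were 8.58, 8.71 and 8.87 in control and 7.82, 8.04 and 8.22 in knockdown SNM, a log2 difference of -0.69 ± 0.17 (limma adjusted p = 0.00306). Its neuronal difference was -1.05 ± 0.17, and with the mean of its detected probes it was -0.46, under the 1.5-fold limit. Epha2, a receptor of pluripotent and epithelial cells, gave 5.70, 5.43 and 5.58 in control and 4.76, 4.94 and 5.00 in knockdown SNM (-0.67 ± 0.12, limma adjusted p = 0.00022). Among neuronal cultures 2 of 3 knockdown arrays detected it and the difference was -0.68 ± 0.12. Without replicate 1 both Epha2 calls were lost (-0.54 and -0.42). Of the ES cell markers tested, 4 of 7 in SNM and 6 of 7 at the neuronal stage were lower in knockdown cells as well. Their part in the Epha2 signal was not tested.

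Epha3 and Epha5 changed direction between the stages. Epha5, a receptor of developing forebrain and retinal projections, lay between 5.85 and 6.02 in control and gave 6.52, 6.69 and 7.03 in HPRT-knockdown SNM, higher by 0.79 ± 0.11 (limma adjusted p = 1.95e-05). Later it gave 6.84, 7.17 and 7.09 in control and 5.82, 5.89 and 6.02 in knockdown cells, with a difference of -1.12 ± 0.11 (limma adjusted p = 2.46e-07). Each of the groups stood clear of the other at both stages. For Epha3, a receptor of motor axons, the SNM signals were 7.56, 7.81 and 8.19 in control and 8.25, 8.46 and 8.61 in knockdown cells, and the difference of 0.59 ± 0.19 (limma adjusted p = 0.0156) lay just past the 1.5-fold limit. It was not called without replicate 1 (0.54) or without replicate 2 (0.55, limma adjusted p = 0.118), and the methods' t-test gave an adjusted p of 0.104. In neuronal cultures the Epha3 signals were 7.13, 7.79 and 7.44 in control and 6.16, 6.60 and 6.85 in knockdown cells, a difference of -0.92 ± 0.19 (limma adjusted p = 0.00057). That call too was lost with the methods' t-test (adjusted p = 0.059). The 2 dimmer Epha3 probes that could be tested had the same signs at both stages and were not called. Epha4 was called at no stage, with differences of -0.03 and 0.13, and Epha1 gave -0.22 in SNM.

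Among the EphB receptors, Ephb1 was higher in HPRT-knockdown SNM (0.70) and gave -0.51 at the neuronal stage, just under the 1.5-fold limit. Ephb4, the venous partner of Efnb2, was lower at the neuronal stage (-0.69 with the brightest probe, -0.63 with the second). Ephb2 differed by 0.29 and -0.43, neither past the limit, and Ephb3 was tested in ES cells only.

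Slit2 was the only member called higher in HPRT-knockdown cells at all 3 stages. It is a large secreted repellent made at the floor plate and by other cells. In ES cells the control signals were 4.84, 5.11 and 4.55 and the knockdown signals 5.57, 5.60 and 5.46, a log2 difference of 0.71 ± 0.12 (limma adjusted p = 0.00179). Control ES cells detected it on 1 of 3 arrays. Against the floor of those arrays it was at least 1.51-fold higher, just past the 1.5-fold limit. In SNM they were 7.78, 7.84 and 7.98 in control and 9.93, 10.15 and 10.16 in knockdown cells. This was the largest rise at that stage, 4.64-fold (log2 difference 2.21 ± 0.12, limma adjusted p = 6.74e-10), and a dimmer second probe gave 1.13 there but was not tested at the other stages. In the neuronal cultures they were 7.25, 7.64 and 7.37 in control and 8.85, 9.03 and 9.03 in knockdown cells, a difference of 1.55 ± 0.12 (limma adjusted p = 1.94e-08). No groups overlapped at any stage. The floor plate markers, 6 of 6 in SNM and 5 of 6 at the neuronal stage, were higher in knockdown cells at the same times, led in SNM by Nkx2-1, a factor of the ventral forebrain as well (6.01 on the log2 scale, with control detection on 1 of 3 arrays), and Shh (5.15). In ES cells Shh, Lmx1a, Nkx2-1 and Corin were detected on no array of either cell type. Their part in the Slit2 signal was not tested. Slit3 differed by 0.25 and 0.02 and was not called.

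The 4 Robo receptors were all lower in HPRT-knockdown cells at the neuronal stage. Robo3, the family member that lets commissural axons cross the midline, was lower in SNM already. There its signals lay between 6.75 and 7.02 in control cells and were 6.57, 6.12 and 5.89 in knockdown cells, a log2 difference of -0.73 ± 0.15 (limma adjusted p = 0.000619). At the neuronal stage control cells gave 5.99, 5.72 and 6.03 and knockdown cells 4.72, 4.50 and 4.57, with no detection on the knockdown arrays, so that it was at least 2.25-fold lower (limma adjusted p = 1.16e-06). Robo1, a widely expressed Slit receptor, gave 10.19, 10.66 and 10.35 in control and 8.97, 9.15 and 9.42 in knockdown cells. It was 2.33-fold lower (log2 difference -1.22 ± 0.17, limma adjusted p = 1.2e-05) after SNM values that overlapped. Robo2 was lower by 0.87 on the log2 scale, and its other tested probes gave -0.44 and -0.32 and were not called. Robo4, the endothelial member, was at least 1.63-fold lower, being detected on no knockdown array. In SNM the differences of Robo1 and Robo4 were -0.25 and 0.30, and neither these nor Robo2 were called. With either scaling without background correction, Robo4 kept its sign and missed the 1.5-fold limit (-0.43 and -0.47).

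The netrin branch was thinly measured. Ntn2l, now named Ntn3, was detected in all conditions and was not called between the cell types (log2 differences of -0.16, 0.45 and 0.07 at the ES, SNM and neuronal stages). Ntn4, a netrin of basement membranes, gave 0.06 in SNM. Dcc, the attractive receptor, was detected on all arrays of no condition. Unc5c, a repulsive receptor, was higher in HPRT-knockdown cells at the neuronal stage by 0.65 with its brightest probe and 0.65 with the second. Unc5b, also repulsive, spread over more than 1 log2 unit within the neuronal arrays of either cell type and was not called. Its signals there were 5.07, 6.09 and 5.67 in control and 5.46, 6.24 and 6.59 in knockdown cells.

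**Figure D3:**
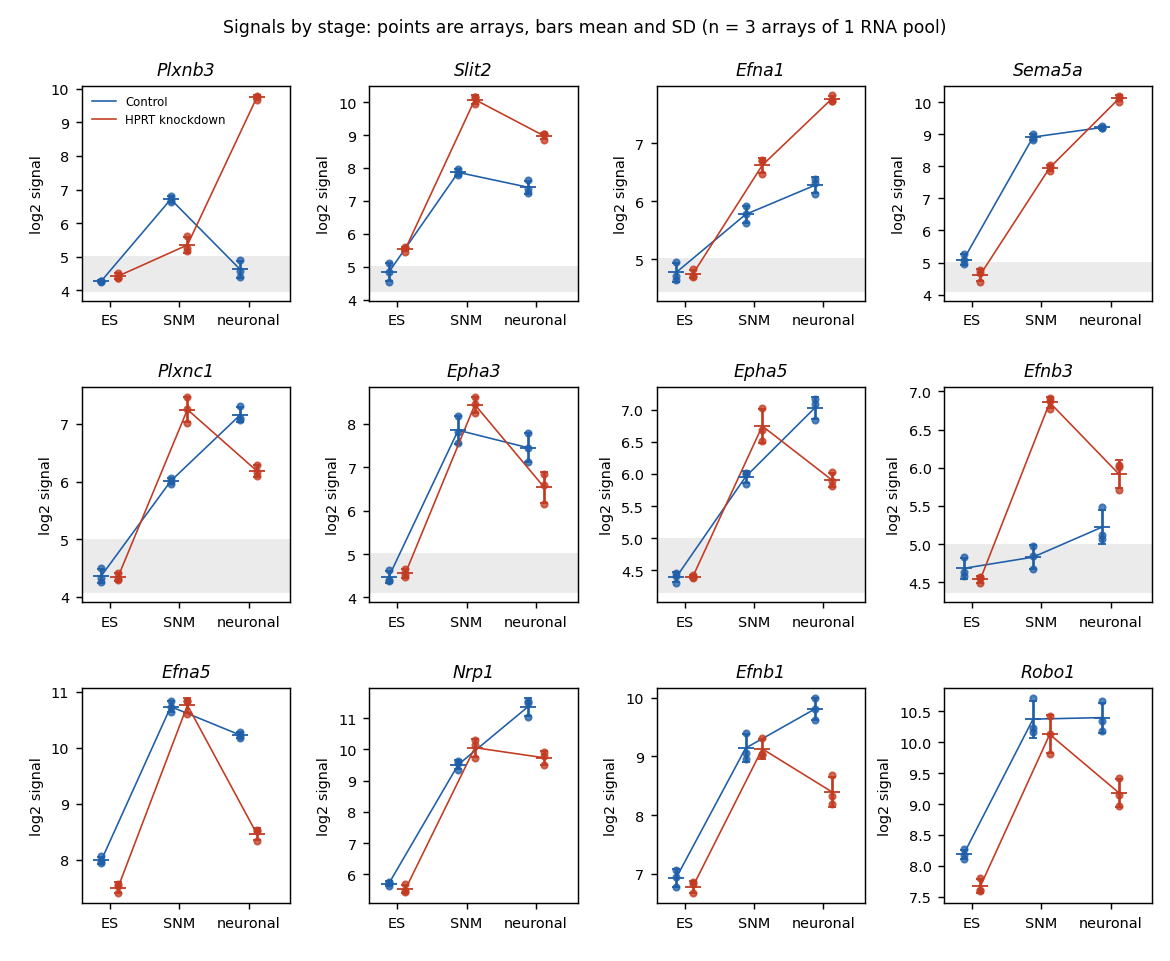
Log2 signal of 12 members at the ES, SNM and neuronal stages. Points are single arrays, bars the mean and SD of 3 arrays, lines join the means of control (blue) and HPRT-knockdown cells (red), and the grey band lies below 4.99, the highest of the lowest detected signals of the 18 arrays, each panel having its own vertical range. Slit2 and Efna1 are higher in knockdown cells at both later stages, the lines of Plxnb3, Sema5a, Plxnc1, Epha3 and Epha5 cross between SNM and neuronal stage, and Efna5, Nrp1, Efnb1 and Robo1 fall below control at the neuronal stage.

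Set beside each other, the calls of the 67 members at the SNM and neuronal stages gave 5 that were lower at both, 5 higher at both, 5 called in opposite directions, 8 called in SNM only, 16 called at the neuronal stage only, and 28 called at neither. The 5 lower at both were Robo3, Epha7, Efnb2, Epha2 and Plxna2, and the 5 higher at both were Slit2, Efnb3, Efna1, Sema3b and Sema6d. A call at a single stage does not show that the knockdown effect differed between stages, so the difference of the effects was tested. The effect at the neuronal stage minus that in SNM was called for 28 of the 51 members tested, 6 higher and 22 lower, beside 28.6% of all tested probes (13.7% higher, 14.8% lower). Its median was -0.41 over the tested members and 0.06 over all tested probes. The 6 whose effect was higher at the neuronal stage were Plxnb3, Sema5a, Sema3e, Sema7a, Sema4d and Efna1. Every ephrin-B ligand, both neuropilins and all 3 tested EphB receptors were among the 22. The effect in SNM minus that in ES cells was called for 20 of 51, 16 higher and 4 lower, beside 21.3% of all tested probes (11.7% higher, 9.61% lower), and for 11 without replicate 2. Quantile normalization without background correction called 12 members, 11 of them among the 20, as did scaling to the 75th percentile.

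**Figure D4:**
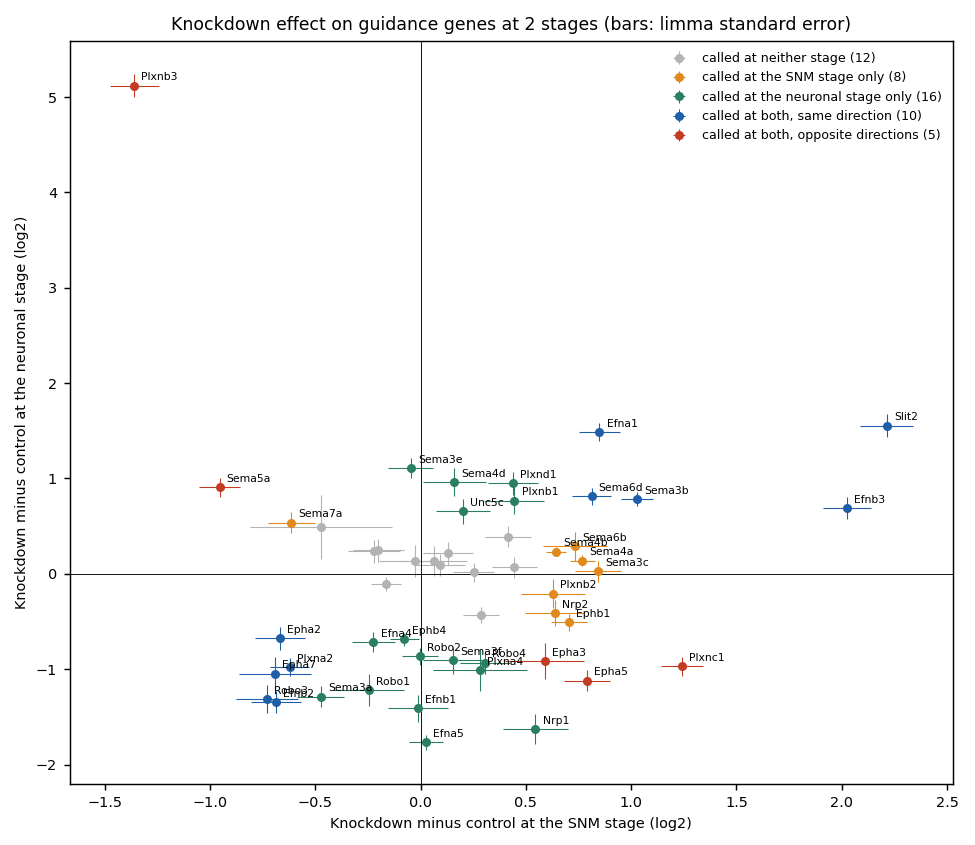
Log2 difference between HPRT-knockdown and control cells in SNM (horizontal) and at the neuronal stage (vertical) for the 51 members tested at either stage. Points are limma estimates from 3 arrays a condition with standard errors as bars, coloured by the calls, and called members are named. Plxnb3 stands alone at the upper left (-1.36 and a fitted 5.12, whose control signal is at background), Slit2 at 2.21 and 1.55, and 16 members called at the neuronal stage only lie along the vertical.

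The passage from ES cells to SNM raised most members in both cell types. In control cells 36 of 47 tested members rose and 4 fell, beside 49.1% of all tested probes called (23.7% higher, 25.4% lower). In HPRT-knockdown cells 37 of 51 rose and 4 fell, beside 57.3% (26.4% higher, 30.9% lower). The same 33 members rose and the same 4 fell in both, with 3 more rising in control and 4 more in knockdown cells only. Among members detected on all arrays of both stages, 23 of 28 were called in control cells (19 higher, 4 lower), beside 43.5% of such probes. In knockdown cells 19 of 25 were called (15 higher, 4 lower), beside 53.6%. The rises of members well above background in ES cells included Efna5 (2.75 in control, 3.26 in knockdown cells), Efnb1 (2.21 and 2.35) and Robo1 (2.19 and 2.46). Epha3 was detected on no ES array and rose at least 7.91-fold in control and 11.4-fold in knockdown cells. Epha2 fell most (-3.17 and -3.59), followed in control cells by Sema4b (-1.54), Sema4a (-1.24) and Robo4 (-1.20).

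From SNM to the neuronal stage the cell types parted. In control cells 14 of 49 tested members rose and 6 fell, beside 29.4% of all tested probes (14.3% higher, 15.1% lower). In HPRT-knockdown cells 8 of 51 rose and 17 fell, beside 28.6% (13.8% higher, 14.8% lower). Of the 45 members detected on all arrays of both stages in each cell type, 13 rose and 4 fell in control cells, beside 28.4% of such probes, and 7 rose and 14 fell in knockdown cells, beside 28.0%. With the 75th percentile scaling the counts over all tested members were 7 and 5 in control and 4 and 12 in knockdown cells. Only 3 members rose in both cell types and 4 fell in both, while 8 rose in control cells only and 10 fell in knockdown cells only. Efnb1, Epha5 and Plxnc1 rose in control cells (0.67, 1.08 and 1.15) and fell in knockdown cells (-0.73, -0.84 and -1.07). Plxnb3 did the reverse, falling at least 3.87-fold in control cells and rising by 4.39 on the log2 scale in knockdown cells. Nrp1 rose most in control cells (1.85) and gave -0.32 in knockdown cells, and Efna5 fell most in knockdown cells (-2.30) and gave -0.51 in control cells. The 2 steps share the SNM arrays with each other and with the knockdown comparison at that stage, so they are not separate evidence.

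Other genes of the guidance pathway, co-receptors, adhesion proteins and cytoplasmic effectors, were read from a list of 81 names, of which 77 were on the array. Between cell types none of 51 tested was called in ES cells by limma, where 16 had an unadjusted p under 0.05. In SNM 11 of 64 were higher and 1 lower, 18.8% of the list beside 19.9% of all tested probes, so this share is no result about the list. At the neuronal stage 9 of 63 were higher and 17 lower, 41.3% beside 27.4% (13.9% higher, 13.5% lower). Among single genes in SNM, the chemokine Cxcl12 was higher by 1.63 on the log2 scale, the ephexin Ngef, an exchange factor downstream of EphA receptors, by 1.59, and the Cdk5 activator Cdk5r1 by 1.32. At the neuronal stage Cdk5r1 was lower (-1.90), as were the adhesion protein Chl1 (-2.29), the atypical cadherin Celsr3 (-1.85), and Crmp1 and Dpysl5, which relay semaphorin signals to microtubules (-1.84 and -1.56). The higher ones were led by Omg, the oligodendrocyte-myelin glycoprotein (3.79), Chn2, a Rac GTPase-activating protein (3.62), and the contactin Cntn1 (2.73). Omg is made by oligodendrocytes as well as neurons, and Chl1, Celsr3, Crmp1 and Dpysl5 are genes of young neurons. The oligodendrocyte markers were higher and most tested neuron markers lower at this stage. The part of such shifts in the differences of these genes was not tested.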

How the data were processed

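The authors deposited signal intensities, averages over beads with neither background subtraction nor scaling, and a detection p-value for each probe and array; they used Illumina's BeadArray software. A second deposited table gave the probe annotation; its 72 per-sample columns, named by chip and position, were not used. The neqc function of limma 3.58.1 (R 4.3.3) gave quantile-normalized log2 signals, with the background read from the detection p-values and an offset of 16. A single model of 6 conditions was fitted to 18 arrays, with eBayes over all probes and two-sided tests. A probe detected on no array of the dimmer condition has a lower-bound fold. Plxnb3, Efnb3 and, in ES cells, Slit2, detected on some arrays of it, have the same bound. Sema3b in SNM and Epha2 at the neuronal stage were also partly detected but are given as fitted differences. The members, lists and tests were chosen with earlier results of these data known. Given array by array were members called in ES cells, the 6 largest rises and falls at each later stage, and those called in opposite directions. The plan's alternatives were other normalizations, filters, folds, probe summaries, tests, samples in the fit, left-out replicates and a replicate block. The methods' t-test at an unadjusted p was added after seeing the data. Deviations of equally numbered knockdown and control arrays correlated at 0.49, 0.11 and 0.49 across probes in SNM. The values were 0.61, 0.09 and 0.32 at the neuronal stage and -0.09, 0.03 and 0.10 in ES cells. Promoters are from RefSeq, matched by gene number or symbol. The script was tested on simulated data.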

Additional observations from a re-analysis of the deposited data

Results flagged for a closer look

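The 5 members here were chosen because limma called them in opposite directions in SNM and at the neuronal stage. A call of the difference of the effects (neuronal minus SNM) was also required. Adjusted p-values under 0.05 were thus fixed by the choice and add no separate support. In each, all HPRT-knockdown arrays stood on one side of all control arrays in SNM and on the other side later. Ephb1 and Nrp1, among others, switched sides in this way without a call at both stages. The difference of the effects was 1.86 on the log2 scale for Sema5a (limma adjusted p = 1.06e-08), -2.21 for Plxnc1 (2.13e-09), -1.91 for Epha5 (4.46e-08) and -1.51 for Epha3 (0.000216). For Plxnb3 it was at least 6.35 with the control neuronal signal set to the floor of each array, since 1 of 3 arrays detected it there (fitted value 6.48, adjusted p = 1.75e-14). Arrays of a condition share an RNA pool, so these values compare pools.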

How the results depend on the processing

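No tested member called in the main or an alternative run reversed direction between the cell types at any stage. Nor did the neuronal minus SNM effect of the 5 members called in opposite directions. Directions of members called in neither run, and of the other comparisons, were not compared. The following counts of called members moved by more than 1.5 times. For knockdown against control in ES cells, 1 call became 0 with quantile normalization or 75th percentile scaling without background correction, with detection required in both conditions, with a 2-fold minimum, with the methods' t-test after Benjamini-Hochberg adjustment, and with the mean of all detected probes of a symbol. In SNM, 23 became 10 with quantile normalization, 8 (4 higher, 4 lower, in place of 15 and 8) with 75th percentile scaling and 5 with a 2-fold minimum, and at the neuronal stage 31 became 14 with a 2-fold minimum. From ES cells to SNM, 40 became 23 in control and 41 became 19 in knockdown cells where both stages had to be detected. From SNM to the neuronal stage, 75th percentile scaling gave 12 (7 higher, 5 lower, in place of 14 and 6) in control and 16 in knockdown cells, and a 2-fold minimum 11 and 12. For the effect in SNM minus that in ES cells, 20 became 12 with quantile normalization or 75th percentile scaling, and 6 with detection in all conditions compared or a 2-fold minimum. For the neuronal minus the SNM effect, 28 became 16 with a 2-fold minimum. Leaving out each replicate gave 1 to 2 calls in ES cells and 11 to 23 for the SNM minus ES effect. With the replicate number as a block, the counts were 1, 23 and 31 at the ES, SNM and neuronal stages, 42 from ES cells to SNM in knockdown cells and 29 for the neuronal minus SNM effect, and no other count moved. Knockdown and control arrays of equal number correlated positively in every pair in SNM and at the neuronal stage, weakly so for replicate 2. In ES cells the correlations had both signs. The array number per condition and signals near background limit the dim members. The cause of these shifts was not tested.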
